A study of Mus musculus with 12 samples.

Results

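The chromosome 9 matrix metalloproteinase cluster was examined in RNA from mouse serum, as 8 members chosen by name: Mmp7, Mmp8, Mmp3, Mmp10, Mmp12, Mmp13, Mmp20 and Mmp27. They are 8 of the 53546 rows in each count file. The question was whether Mmp8, the member made by neutrophils, differed from the members that stromal and epithelial cells make. The labels give 6 samples of normal serum and 6 of colorectal cancer serum, all described as biological replicates. The sources used here do not give strain, age, sex or the way the cancer arose, and neither group carries a stated allele or agent. The deposited files label the same material as blood. Colorectal cancer replicates 5 and 6 held identical values in every row and were counted as 1 sample, named replicate 6. This left 6 normal and 5 colorectal cancer libraries.

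Matrix metalloproteinases are zinc proteases that cut the extracellular matrix and many secreted proteins, and most are made as inactive precursors. A group of their genes lies side by side and arose by duplication, yet its members are used by different cells. Mmp8 is the neutrophil collagenase, made while neutrophils mature in bone marrow and stored in their granules. Mmp13 is a collagenase of bone and stromal cells, and Mmp3 and Mmp10 are the stromelysins of stromal and epithelial cells. Mmp12 is the macrophage elastase, Mmp7 is the epithelial matrilysin, and Mmp20 is the enamelysin of developing teeth. The role of Mmp27 is less well described.

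In GENCODE release M21, an annotation of the mm10 build, the cluster spanned chr9:7272514-7699585, a stretch of 427072 bases with 10 metalloproteinase genes. From the low end the order was Mmp13, Mmp12, Mmp1b, Mmp3, Mmp1a, Mmp10, Mmp8, Mmp27, Mmp20 and Mmp7. Mmp1b and Mmp1a, the mouse relatives of human interstitial collagenase, are not among the 8 members. Mmp1b was the only one of the 10 on the minus strand. Mmp8 lay at chr9:7558456-7568485 on the plus strand, with 10 exons in 1 annotated transcript and no overlapping gene. Mmp27 followed it at chr9:7571396-7581885. Mmp12 at chr9:7344381-7369499 overlapped Mmp1b, which had 0 counts in every library. Mmp20 and Mmp7 overlapped the antisense gene AV064505, and no counts were found under that name, which may not be a row.

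The promoters of 4 members are shown because the cluster is known for promoters with AP-1 sites and TATA boxes, and because Mmp8 and Mmp27 were without an AP-1 match in their windows. Each is the 250 bases before the RefSeq start in GRCm38.p6, which is mm10, read 5′ to 3′ on the plus strand. Mmp8 is at chr9:7558179-7558428, Mmp27 at chr9:7571146-7571395, Mmp10 at chr9:7502092-7502341 and Mmp13 at chr9:7272264-7272513. Capitals mark matches, on either strand, to the motifs searched. The AP-1 motif was searched as TGANTCA. The motif of C/EBP factors was searched as TTGCNNAA. The box was searched as TATAAA, and the site of the myeloid factor PU.1 as GAGGAA.
Mmp8: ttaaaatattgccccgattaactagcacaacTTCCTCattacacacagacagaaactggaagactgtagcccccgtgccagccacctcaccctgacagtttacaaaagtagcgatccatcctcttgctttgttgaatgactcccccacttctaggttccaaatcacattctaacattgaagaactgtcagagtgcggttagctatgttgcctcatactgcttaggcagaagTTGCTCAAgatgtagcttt
Mmp27: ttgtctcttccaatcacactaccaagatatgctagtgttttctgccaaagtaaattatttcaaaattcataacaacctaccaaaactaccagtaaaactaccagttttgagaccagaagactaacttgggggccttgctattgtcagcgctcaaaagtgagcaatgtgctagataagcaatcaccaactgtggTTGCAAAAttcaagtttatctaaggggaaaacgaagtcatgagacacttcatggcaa
Mmp10: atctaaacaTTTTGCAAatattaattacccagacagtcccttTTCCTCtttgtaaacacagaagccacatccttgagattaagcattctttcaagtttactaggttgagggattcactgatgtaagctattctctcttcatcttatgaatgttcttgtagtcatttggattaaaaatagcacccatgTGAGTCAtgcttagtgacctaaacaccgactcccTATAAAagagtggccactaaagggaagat
Mmp13: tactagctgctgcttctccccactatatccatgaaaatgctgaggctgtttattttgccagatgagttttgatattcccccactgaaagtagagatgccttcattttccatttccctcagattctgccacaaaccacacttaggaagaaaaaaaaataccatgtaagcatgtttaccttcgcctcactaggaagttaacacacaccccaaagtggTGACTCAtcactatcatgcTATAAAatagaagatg
The Mmp8 window held a C/EBP match at -19 and a PU.1 match at -219 from the start. The Mmp27 window held a C/EBP match at -57. The Mmp10 window held an AP-1 match at -63, a TATA box at -29, a C/EBP match at -241 and a PU.1 match at -208. The Mmp13 window held an AP-1 match at -35 and a TATA box at -16.

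All 10 genes of the cluster had a RefSeq promoter window. An AP-1 match was present in 8 of the 10 (for Mmp12 in its second annotated window), against 6.75% of 32851 promoter windows of the same length. Mmp8 and Mmp27, which lie next to each other, were the other two. A TATA box match was present in 7 of 10 (12.4% of all windows), a C/EBP match in 6 of 10 (9.56%) and a PU.1 match in 4 of 10 (23.3%). The PU.1 matches were in Mmp8, Mmp10, Mmp12 and Mmp7. The cluster counts are of genes with a match in any window, and Mmp12 and Mmp7 each have a second window. The percentages are of single windows, so the units differ. All of these are letter matches, and binding was not measured.

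Library totals ran from 2889205 to 20774889 counts. Olfr648, a row named for an olfactory receptor, took 7969078 to 17324370 counts in normal replicates 2 and 3 and colorectal cancer replicates 1, 2, 4 and 6, and 3247 to 5150 in the rest. Without that row the totals were 2885958 to 4089488 in normal serum and 3727908 to 7033966 in colorectal cancer. Depth outside that row thus moved with group, so raw counts and zeros are not on the same scale in the 2 groups. Row names carry a limit, since 31 of 80 ribosomal protein rows (38.8%), genes that every cell uses, were at 0 in all 11 libraries. A count of 0 therefore says only that the row was at 0. Of all rows 60.2% were at 0 in every library, and of rows named for protein-coding genes 42.2%. Values below are TMM-scaled CPM, read counts corrected for the size of the library, and in bulk RNA fewer cells of a type and less RNA per cell cannot be told apart.

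Mmp8 was the abundant member of the cluster in both groups, and its level was higher in every colorectal cancer library than in any normal one. Its row held 385 to 1834 counts in the normal libraries and 3077 to 9213 in the colorectal cancer libraries. In normal serum the lowest value was 74.2 CPM (replicate 1), the median 213 and the highest 351 (replicate 4). The colorectal cancer values were 690 in replicate 1, 519 in replicate 2, 388 in replicate 3, 540 in replicate 4 and 654 in replicate 6. Normal replicates 1, 5 and 6 were the low ones, at 74.2, 89.7 and 138 CPM, and normal replicates 2, 3 and 4 lay between 288 and 351. The groups did not overlap, although normal replicate 4 and colorectal cancer replicate 3 were close.

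The fitted difference in Mmp8 was 1.44 on the log2 scale (SE 0.41, 95% interval 0.54 to 2.34), a 2.71-fold higher level in colorectal cancer. It did not pass the edgeR quasi-likelihood test after Benjamini-Hochberg adjustment over 9565 rows (adjusted p = 0.134). DESeq2 gave the same log2 difference of 1.44 with an adjusted p of 0.00128. By edgeR 0 of the 2 tested members passed, against 2.02% of all tested rows, and of those 2 Mmp8 had an unadjusted p under 0.05, against 5.72% of rows in the higher direction. By DESeq2 8.04% of its 4766 tested rows passed. Groups did not overlap in 3.64% of tested rows, and in 1.54% with colorectal cancer higher. Mmp8 ranked 346 by p, and 2.56% of rows had a log2 difference at least as large.

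**Figure D1:**
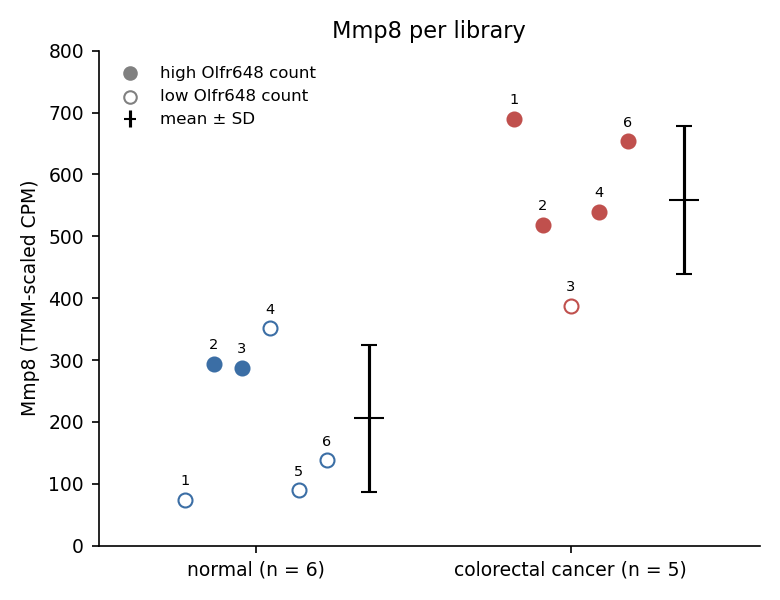
Mmp8 level in each library, in TMM-scaled CPM, with points numbered by replicate, the mean and the SD for 6 normal and 5 colorectal cancer libraries, and symbols for libraries with high or low Olfr648 counts. The colorectal cancer libraries sit between 388 and 690, all above the normal ones at 74.2 to 351.

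The division of libraries by Olfr648 counts moved with group, since 4 of 5 colorectal cancer and 2 of 6 normal libraries were high. Within the high libraries Mmp8 was at 288 and 294 CPM in normal serum (291 ± 4.54, SD, n = 2) and at 519 to 690 in colorectal cancer (601 ± 84.1, SD, n = 4). Among the low libraries, normal serum was at 163 ± 128 (SD, n = 4) and the single colorectal cancer library was at 388. In both divisions colorectal cancer lay above normal serum without overlap. The fit on the high libraries alone, chosen after the data were in view, gave 1.05 on the log2 scale and passed (edgeR quasi-likelihood test, Benjamini-Hochberg adjustment, adjusted p = 0.0311). With the division as a covariate the difference was 1.12 and did not pass (adjusted p = 0.377). On totals without the Olfr648 row, Mmp8 was at 357 ± 208 CPM in normal serum (SD, n = 6) and 1277 ± 284 in colorectal cancer (SD, n = 5). A fit with that row left out also used plain totals without TMM. There Mmp8 passed at 1.85 (edgeR quasi-likelihood test, adjusted p = 0.0149), and the median of all rows also moved from 0.04 to 0.43. Leaving out the row and leaving out TMM were not fitted apart.

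The collagenase Mmp13 was the other member with enough counts to test, and its values were a few counts per library. Its row held 40, 9, 0, 9, 0 and 0 counts in normal replicates 1 to 6 and 14, 12, 6, 12 and 9 in the colorectal cancer libraries. Normal serum was at 1.83 ± 2.99 CPM (SD, n = 6) and colorectal cancer at 0.879 ± 0.287 (SD, n = 5), and the groups overlapped. Normal replicate 1 alone reached 7.71 CPM, and 3 of 6 normal libraries were at 0. The fitted log2 difference was -1.03 (SE 1.12, edgeR quasi-likelihood test, Benjamini-Hochberg adjustment, adjusted p = 0.860). Its sign rested on normal replicate 1, since without it the difference was 0.46.

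The stromelysin Mmp3 had 27 counts in all, from 4 in normal replicate 2, 12 in colorectal cancer replicate 2 and 11 in replicate 3. It was at 0.107 ± 0.262 CPM in normal serum (SD, n = 6) and 0.422 ± 0.624 in colorectal cancer (SD, n = 5). The macrophage elastase Mmp12 had 49 counts, with 4 each in normal replicates 1 and 3 and 13, 10, 7 and 11 in colorectal cancer replicates 2, 3, 4 and 6. It was at 0.235 ± 0.366 CPM in normal serum (SD, n = 6) and 0.672 ± 0.459 in colorectal cancer (SD, n = 5). Both rows overlapped between the groups and had too few counts to pass the filter. Without that filter, over 21309 rows, the log2 difference was 1.83 for Mmp3 (adjusted p = 0.672) and 1.502 for Mmp12 (adjusted p = 0.670) in the edgeR quasi-likelihood test.

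Mmp27, the gene next to Mmp8, had 0 counts in each of the 6 normal libraries. In colorectal cancer it had 6 counts in replicate 1, 0 in replicate 2, 2 in replicate 3, 31 in replicate 4 and 21 in replicate 6, which are 0.582, 0, 0.252, 2.38 and 1.49 CPM. The groups overlapped at 0 through colorectal cancer replicate 2. Pooled over libraries, Mmp27 in colorectal cancer was 11.5-fold the level that 3 counts over the whole normal group would give. That level is taken as the limit that 0 allows. Without colorectal cancer replicate 4, which had the most counts, the ratio was 7.05. It leaves out counting error in colorectal cancer and the spread between libraries, so it is not a bound on the group difference. Mmp27 had too few counts to pass the filter, and in the fit without a filter it did not pass (edgeR quasi-likelihood test, adjusted p = 0.156), where Mmp8 had a log2 difference of 1.48 (adjusted p = 0.294). In that fit both Mmp27 and Mmp8 had an unadjusted p under 0.05. The Mmp27 row was in the fit only through the colorectal cancer libraries, so its difference could only be positive. Its p is therefore not evidence of a change and is not ranked against that of Mmp8. Of all 21309 rows in that fit, 1578 were under 0.05 with colorectal cancer higher and 1345 with it lower.

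The matrilysin Mmp7, the stromelysin Mmp10 and the enamelysin Mmp20 were at 0 in all 11 libraries. A count of 0 allows up to 0.180 to 0.604 CPM in a single library and 0.0307 CPM over all of them, at 3 counts and for counting error only. The 2 cluster genes outside the member list, Mmp1a and Mmp1b, were also at 0 throughout. Of the 8 members, 5 were thus above 0 somewhere and 2 were tested.

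Per length, Mmp8 was far above the other members. Over all libraries it was at 178 CPM per kilobase of exon, against 0.425 for Mmp13, 0.278 for Mmp27, 0.153 for Mmp3 and 0.0693 for Mmp12. These are ratios of 420, 642, 1162 and 2573. The Mmp12 value rests on a length of 7237 merged exon bases from 7 transcripts. Not divided by length, Mmp12 was at 0.502 CPM over all libraries and Mmp3 at 0.276. No ratio is given to Mmp7, Mmp10 and Mmp20, whose rows were at 0. The lowest Mmp8 value in any library was 30.6 CPM per kilobase (normal replicate 1), and the highest of any other member was 2.89 (Mmp13 in the same library), so the ranges did not meet. The 4 low members crossed each other from library to library, and their order in the pooled levels does not exceed that spread. In normal serum Mmp8 was at 83.0 CPM per kilobase and Mmp13 at 0.608, and in colorectal cancer they were at 233 and 0.320.

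**Figure D2:**
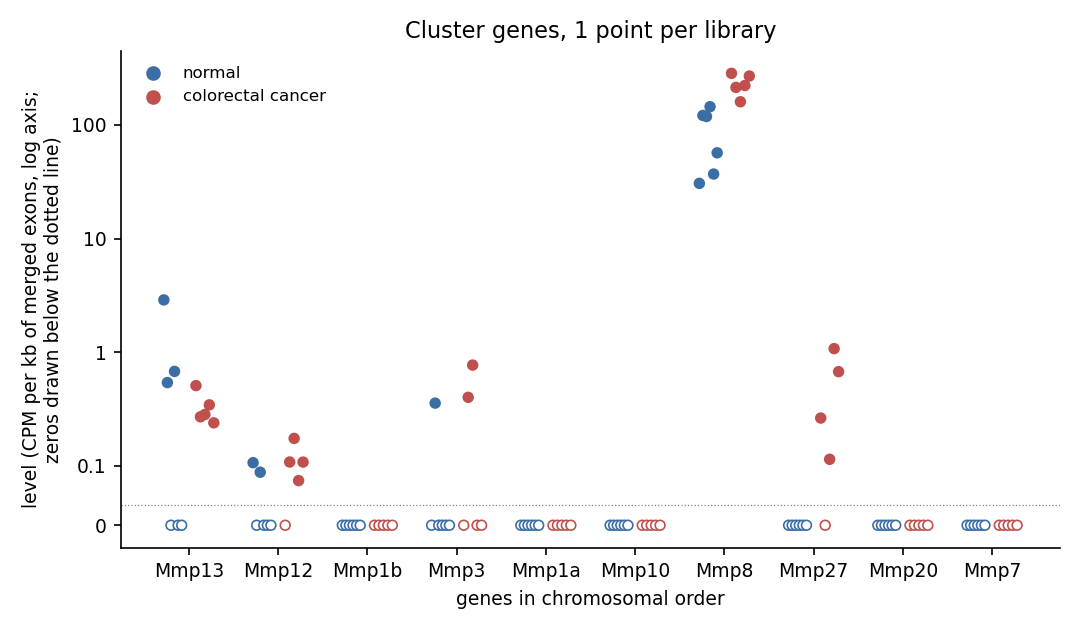
Level of each of the 10 cluster genes in each library, in CPM per kilobase of merged exons on a log axis, with 1 point per library for 6 normal and 5 colorectal cancer libraries and zeros as open points below the dotted line. Mmp8 lies at 30.6 or above in every library, while Mmp13, Mmp12, Mmp3 and Mmp27 reach at most 2.89 and the other 5 genes are at 0.

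Whether Mmp8 changed by more than the other members was tested on the log2 ratio of Mmp8 to each of the 4 detected members within a library, with 0.5 CPM added to both. The ratio to Mmp13 was 7.08 ± 2.04 in normal serum (SD, n = 6) and 8.66 ± 0.330 in colorectal cancer (SD, n = 5), a difference of 1.58 (two-sided exact permutation p = 0.0476, adjusted p = 0.173 over 4 ratios). The ratio to Mmp3 differed by 1.21 (exact permutation p = 0.0866, adjusted p = 0.173). For Mmp12 the difference was 0.96 (exact permutation p = 0.203, adjusted p = 0.271), and for Mmp27 it was 0.41 (exact permutation p = 0.472, adjusted p = 0.472). None of the 4 passed after adjustment. All 4 differences were positive, but they share the Mmp8 values, so the common sign is not 4 separate results. The exact permutation test has 462 arrangements and can fall well below 0.05, but the added 0.5 CPM sets most of the value of members near 0. In the edgeR fit without a filter, the log2 difference was 1.48 for Mmp8 (SE 0.44), 1.83 for Mmp3 (SE 1.68) and 1.502 for Mmp12 (SE 1.38). It was 6.10 for Mmp27 (SE 1.78) and -0.99 for Mmp13 (SE 1.08), and none of these passed. With SEs this wide, these values do not rank the members against Mmp8. Mmp27 had no counts in normal serum, so the counts do not fix the size of its value. It entered this fit and the ratios only through the colorectal cancer libraries. Leaving out normal replicate 3 brought the ratio to Mmp13 past the threshold (exact permutation, adjusted p = 0.0317), and with 0.1 CPM added the ratio to Mmp27 turned to -0.99. Mmp8 thus lay apart in level, and a difference in how far it changed was not detectable at these counts.

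The genes on either side of the cluster were described by the 10 protein-coding genes nearest on each side. None of the 20 was at 0 in all libraries, against 5 of the 10 cluster genes and 42.2% of rows named for protein-coding genes. Of the 13 tested, 2 were higher and 2 lower by the edgeR quasi-likelihood test (Benjamini-Hochberg adjustment), where 0.565% of all rows were higher and 1.45% lower, and the median log2 difference was -0.06 (all rows, 0.04). DESeq2 called 2 higher and 4 lower of 12, adding Cep126 and Trpc6 to the lower ones, where 8.04% of all its rows passed. The inflammatory caspase genes Casp4 (1.34, SE 0.16, adjusted p = 0.00512) and Casp1 (0.72, SE 0.13, adjusted p = 0.0131) rose. Casp4 was at 54.9 to 99.7 CPM in normal serum and 169 to 216 in colorectal cancer, and Casp1 at 86.7 to 147 and 159 to 199.7. On the other side Birc2, an inhibitor of cell death (-0.51, SE 0.11, adjusted p = 0.0352), and Yap1, a coactivator of the Hippo pathway (-1.07, SE 0.23, adjusted p = 0.0289), fell. The call for Birc2 was lost when any of normal replicates 1 and 2 or the 5 colorectal cancer libraries was left out (edgeR adjusted p up to 0.0972). That for Yap1 was lost when any of normal replicates 1 and 2 and colorectal cancer replicates 1, 3 and 4 was left out (up to 0.0617).

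The genes immediately next to the cluster, Dcun1d5 and Tmem123, did not pass the test. Dcun1d5, a regulator of cullin neddylation, was at 112 ± 20.6 CPM in normal serum (SD, n = 6) and 121 ± 13.7 in colorectal cancer (SD, n = 5), a log2 difference of 0.11 (the edgeR quasi-likelihood test, adjusted p = 0.874). Tmem123, a membrane protein gene on the other side, was at 1092 ± 146 and 936 ± 49.7, a difference of -0.22 (adjusted p = 0.376). The groups overlapped for both. Of the second genes out, Birc2 fell, as given above, and Dync2h1, the heavy chain of the ciliary dynein, was at 30.3 ± 8.14 and 29.0 ± 6.45 with overlapping groups (-0.07, adjusted p = 0.959).

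**Figure D3:**
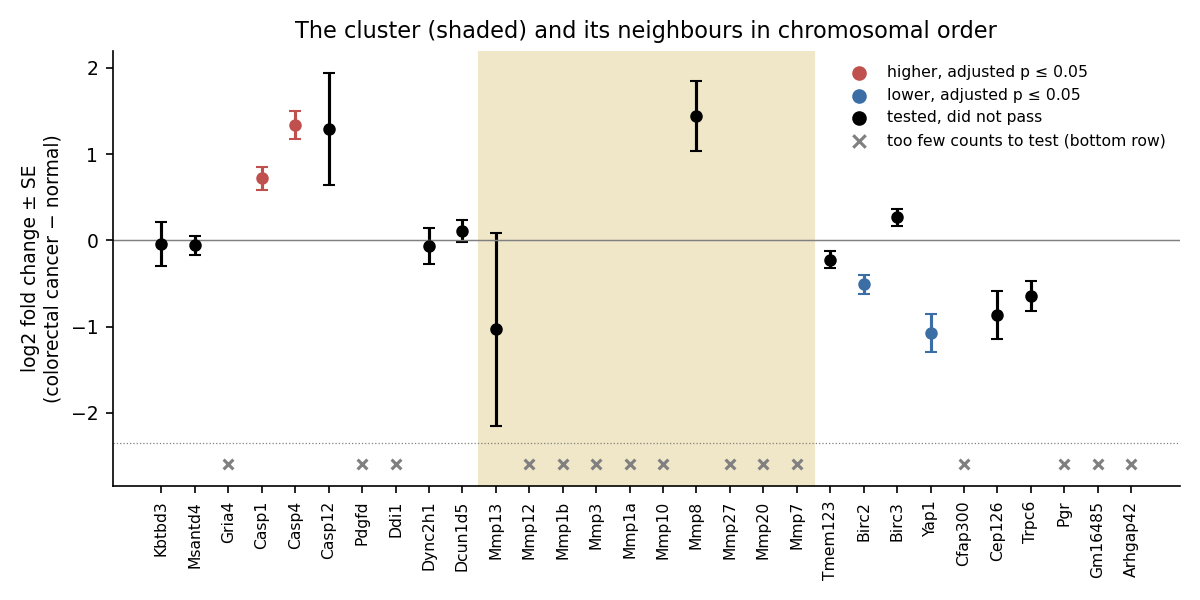
Log2 difference, colorectal cancer minus normal, with its SE, for the cluster (shaded) and 10 protein-coding genes on each side in chromosomal order. Mmp8 at 1.44 and Mmp13 at -1.03 are the 2 cluster genes with a value, and genes with too few counts to test are crosses in the bottom row.

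Metalloproteinases encoded elsewhere were compared as a list of 13 genes. In that list 7 were tested and 4 had no count in any library. In the edgeR quasi-likelihood test (Benjamini-Hochberg adjustment) 0 were higher and 0 lower, and the median log2 difference was -0.09. Mmp9, the gelatinase that neutrophils also store, was at 15.0 to 26.0 CPM in normal serum and 18.5 to 29.0 in colorectal cancer, with overlapping groups (0.25, adjusted p = 0.674). The membrane-type enzyme Mmp24 was at 24.8 ± 5.30 and 23.3 ± 3.70 CPM (-0.09, adjusted p = 0.928). The single list member with an unadjusted p under 0.05, Mmp14, another membrane-type enzyme, was at 4.45 ± 1.84 in normal serum (SD, n = 6) and 2.27 ± 0.498 in colorectal cancer (SD, n = 5), a log2 difference of -0.97 (adjusted p = 0.240 by edgeR). An unadjusted p under 0.05 in the lower direction was found in 5.65% of all rows. By DESeq2 0 of its 2 tested members passed.

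Genes that act on metalloproteinases gave no calls by the edgeR quasi-likelihood test (Benjamini-Hochberg adjustment). Inhibitors had 2 of 7 members tested, Timp2, a secreted inhibitor (41.4 ± 21.7 CPM in normal serum, 39.5 ± 3.96 in colorectal cancer), and Reck, a membrane-bound one (10.98 ± 3.20 and 14.3 ± 2.60). Activators had 2 of 9 tested, the convertase Furin (3.29 ± 1.85 and 3.34 ± 1.596) and the plasminogen activator Plat (0.872 ± 0.662 and 1.27 ± 0.413). Substrates had 3 of 10 tested, among them Fn1, which encodes fibronectin (179 ± 150 and 333 ± 295), and the collagen gene Col1a2 (10.4 ± 9.91 and 5.94 ± 4.19). Regulators of metalloproteinase transcription had 5 of 16 tested, among them the NF-kB subunit Rela (49.7 ± 10.3 and 59.7 ± 5.94) and the AP-1 member Fosb (19.6 ± 2.69 and 20.3 ± 3.23). In these 4 lists 0 members had an unadjusted p under 0.05 and 0 passed DESeq2. With 2 to 5 members tested per list, against 2.02% of all rows called by edgeR and 8.04% by DESeq2, these counts do not set the lists apart from other rows.

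The neutrophil markers at 0 are to be read against 60.2% of all rows and 42.2% of rows named for protein-coding genes. Of 16 granule and precursor genes 10 had 0 counts in all libraries, among them the defining Lcn2, Camp, Ngp, Elane, S100a8, S100a9 and Ly6g, and of the 3 tested 0 passed edgeR's test. Their summed level was 16.7 to 30.2 CPM in normal serum and 21.7 to 53.7 in colorectal cancer. Of 12 mature neutrophil genes 7 had 0 counts, Csf3r and Fpr1 included, and the 1 tested, Mxd1, a repressor that partners Max, rose. That list summed to 4.24 to 24.4 CPM in normal serum and 29.5 to 57.3 in colorectal cancer, and Mxd1 made up most of it. The granule protease gene Prtn3 had 17.3 CPM in colorectal cancer replicate 2 and at most 0.321 in the rest. The part of neutrophil number in the Mmp8 difference was not tested.

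Markers of other sources were read in the same way, and edgeR's test called 0 members of the monocyte, stromal and epithelial lists. They had 3, 6 and 3 members tested, and 2.02% of all tested rows were called, so a count of 0 does not set them apart. Their members at 0 are to be read against the same shares. Monocyte and macrophage genes, 4 of 10 at 0, summed to 4.49 to 15.1 CPM in normal serum and 9.56 to 21.6 in colorectal cancer. Stromal genes, 6 of 12 at 0 with Pdgfra, Dcn and Col1a1 among them, summed to 520 to 1177 and 778 to 1021, most of it Vim. Epithelial genes, 7 of 12 at 0 with Epcam and Krt8 among them, summed to 128 to 153 and 129 to 165. A platelet gene, Itga2b, fell by 1.21 on the log2 scale (adjusted p = 0.0374), with the other 3 of its list at 0. The Itga2b call was lost when any of normal replicates 1, 2, 4 and 6 and colorectal cancer replicates 1, 4 and 6 was left out (edgeR adjusted p up to 0.108). A red cell gene, Hemgn, fell by 1.74 (adjusted p = 0.00603 by edgeR), with 4 of its list of 6 at 0. The remaining red cell gene, Hba-a1, did not pass and its groups overlapped (log2 difference -0.02, SE 0.28, adjusted p = 0.992 by edgeR). Any part of these other sources in the Mmp8 difference was not tested.

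The rows whose levels followed Mmp8 most closely were on other chromosomes. Likeness was Pearson's r of log2(CPM + 0.5) with Mmp8 over the 11 libraries, among 2967 rows of at least 10 CPM on average. Mxd1 on chromosome 6 came first (r = 0.988, Spearman's rho 0.982), then Eva1b (0.979), Nmnat2, an enzyme of NAD synthesis (0.977), Cdkn1a, a cell cycle inhibitor (0.972), and Vps37a, a part of the endosomal sorting machinery (0.970). These values are a description over libraries that share the group difference and the Olfr648 division. After each group's mean was removed they were 0.973, 0.960, 0.958, 0.937 and 0.925, and without normal replicates 1 and 5, farthest from the Mmp8 median, they were 0.970, 0.938, 0.933, 0.945 and 0.908. Among genes named above, r was 0.895 for Casp4, 0.819 for Vim, 0.801 for Casp1, 0.437 for Dcun1d5, 0.351 for Mmp9 and -0.772 for Tmem123. With each group's mean removed these were 0.763, 0.834, 0.409, 0.338, -0.00199 and -0.580.

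Mxd1 was lowest in the libraries where Mmp8 was lowest. In normal serum its lowest value was 4.24 CPM (replicate 1), its median 14.4 and its highest 20.7 (replicate 4), the replicates that were lowest and highest for Mmp8. In colorectal cancer it was at 42.8, 40.0, 28.1, 37.2 and 54.4 in replicates 1, 2, 3, 4 and 6, with replicate 3 lowest as for Mmp8. The groups did not overlap, and the log2 difference was 1.61 (SE 0.36, adjusted p = 0.0421 by the edgeR quasi-likelihood test). That call was lost when any of normal replicates 2, 5 and 6 or colorectal cancer replicates 1, 2, 4 and 6 was left out (edgeR adjusted p up to 0.115). Eva1b was at 333 ± 144 CPM in normal serum (SD, n = 6) and 624.6 ± 109 in colorectal cancer (SD, n = 5), Nmnat2 at 9.21 ± 3.25 and 14.5 ± 0.941, Cdkn1a at 39.7 ± 14.7 and 74.1 ± 15.0, and Vps37a at 11.8 ± 7.45 and 38.0 ± 10.9. None of these 4 passed edgeR's test, and 3 of them passed DESeq2 (all but Nmnat2). Annotated genes overlap Mxd1, Nmnat2, Cdkn1a and Vps37a, and the sources used here do not give the counting strand, so shared reads are possible in those rows.

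**Figure D4:**
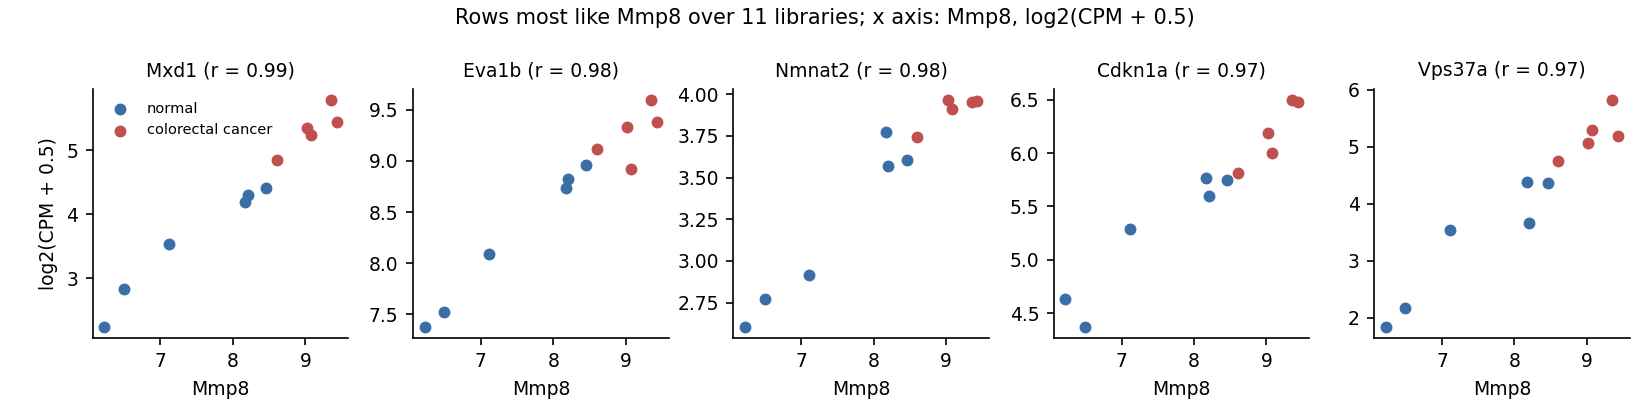
Level of the 5 rows most like Mmp8 (vertical axes) against the level of Mmp8 (horizontal axes), both as log2(CPM + 0.5), with 1 point per library for 6 normal and 5 colorectal cancer libraries. The points of Mxd1 run along a line (r = 0.988 over 11 libraries), with the normal libraries at the low end. Vertical axes differ between the panels.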

How the data were processed

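Per the labels' protocols, TRIzol was used to extract mouse serum RNA and a stranded total RNA kit to make the libraries. The deposited files hold whole-number counts per gene symbol, not normalized, 53546 rows each, of which 0 name no gene. Per the submitters' processing notes the tools were Trim Galore, HISAT2 and StringTie, on mm10. Which annotation, counting step and strand setting were used was not given in the sources used here. If counts were taken from StringTie they derive from transcript coverage.

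Rows were filtered with filterByExpr (9565 kept), given TMM factors and fitted in R 4.3.3 by edgeR 4.0.16 (robust glmQLFit, then glmQLFTest) over 6 normal and 5 colorectal cancer libraries, with Benjamini-Hochberg adjustment at 0.05. The SE is the log2 difference divided by the root of F, and intervals use the t distribution with the fit's degrees of freedom. Totals of 2889205 to 20774889 counts set the depth. Per-length levels used merged exons of GENCODE M21, and promoters came from RefSeq (GRCm38.p6). Ratios of Mmp8 to other members were tested by exact permutation over 462 splits. DESeq2 1.42.0 was an alternative, with those of the closing section. Scripts used Python 3.11.15, pandas 2.3.3, SciPy 1.17.1 and Matplotlib 3.10.9, and the procedure was tested on simulated data.

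Members and gene lists were chosen with earlier results of these data known. Named genes were all members, tested list members past the threshold or otherwise the 2 most abundant, the neighbours past the threshold and those next to the cluster, and the 5 rows most like Mmp8. Mmp14, Prtn3, Vim, Cep126, Trpc6, Hba-a1 and the genes named as at 0 were named after their values were seen. Because the labels give replicate numbers only as names, p-values measure the spread between these samples.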

Additional observations from a re-analysis of the deposited data

Results flagged for a closer look

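Of 25 groups of values for which a far library could be looked for, 3 had a library farther from the rest than Dixon's 95% limit. Chance flags about 1 in 20 groups of continuous values, a rate that does not hold for rows with many zeros. Mmp3 in normal serum was at 0.642 CPM in replicate 2 and at 0 in the other 5 libraries, and rests on 4 counts (gap over range 1.0, limit 0.625). A single library above 0 gives that gap at any level. Mmp13 in normal serum was at 7.71 CPM in replicate 1 (gap over range 0.765, limit 0.625), the library whose removal turned its difference positive. Nmnat2 in colorectal cancer was lowest in replicate 3, at 12.9 CPM (gap over range 0.759, limit 0.710), which was also the lowest colorectal cancer library for Mmp8.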

How the results depend on the processing

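Mmp8 was higher in colorectal cancer under all 21 alternatives, at 1.05 to 1.85 on the log2 scale. By the edgeR quasi-likelihood test (Benjamini-Hochberg adjustment) it passed with the Olfr648 row and TMM left out (1.85) and in the libraries with high Olfr648 counts alone (1.05), and by DESeq2 it passed at 1.44. Without each library in turn it was 1.26 to 1.66 (adjusted p 0.0798 to 0.265). With a replicate block it was 1.43 (adjusted p = 0.406), and 1.56 (0.499) with the repeated file numbered 5. The last of these and the fit on the high libraries alone were chosen after seeing the data. The labels do not say whether the numbers pair the samples. Deviations of same-numbered libraries correlated at -0.09 to 0.04, and only pair 4 matched best with its own number. So few pairs cannot exclude a paired design.

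Rows called higher and lower were 54 and 139, and 27.98% of the calls were higher. DESeq2 called 159 and 224, the Olfr648 covariate 13 and 68, the replicate block 6 and 59, and the high libraries alone 34 and 27. The block with the repeated file numbered 5 called 1 and 0 by edgeR, with 450 and 399 rows at an unadjusted p under 0.05. Rows higher were 82 with a mean of at least 10 CPM and 112 with the repeated file kept. With both the Olfr648 row and TMM left out they were 1383, and 93.3% of calls were higher. Without each library in turn they were 16 to 67, and rows lower were 89 to 139.

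Mmp13 turned to 0.33 in the high libraries alone, and ran from -1.31 to 0.46 without each library in turn. Tmem123 turned to 0.18 with the Olfr648 row and TMM left out. Dync2h1 turned to 0.35 in that setting, 0.0706 with the covariate, 0.0235 with the replicate block, 0.0249 with that block and the repeated file numbered 5, and 0.40 in the high libraries alone. The ratio of Mmp8 to Mmp27 turned to -0.99 with 0.1 CPM added and -0.37 in the high libraries, and that to Mmp13 ran from 0.80 to 1.999 without each library in turn. Calls were lost for Mxd1 in 11 of 21 alternatives, Birc2 in 12, Itga2b in 12, Yap1 in 9, Casp1 in 3, Hemgn in 2 and Casp4 in 1, and the cause was not tested. Members at a few counts are limited by depth.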
